A study of Bos taurus with 6 samples.

Results

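The 8 genes of the type I interferon response described here were read by symbol from 6 RNA-seq libraries of bovine late morulae: MX1, MX2, ISG15, IFI6, IFI27, RSAD2, IRF1 and IRF7. All 8 were present among the 15314 uniquely named genes of the deposited table. They were chosen by name, with earlier results of these libraries known, so their values are given as a description. A fit over all genes is quoted for its standard errors and for how many members passed its threshold, beside the share over all genes, and nothing is read from these counts. The embryos were collected 6 days after in vitro fertilization, in pools of 15 per library. The control group received a nonspecific small interfering RNA (siRNA), the second group an siRNA against NOTCH1, a receptor of the NOTCH pathway, and the third an siRNA against RBPJ, the DNA-binding partner of activated NOTCH. Each group had 2 libraries. Every embryo analysed here had therefore been injected with an siRNA, and uninjected embryos were not analysed here, so the values show how the genes varied between siRNAs and between pools and not what injection itself did.

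Interferons are secreted proteins that cells release on sensing foreign nucleic acid. They bind receptors at the cell surface, which act through the kinases JAK1 and TYK2 on transcription factors of the STAT family. STAT2 and IRF9 are parts of the complex that switches on interferon-stimulated genes. Double-stranded RNA is a classical trigger of the sensors upstream. In cattle the trophectoderm also secretes a type I interferon of its own, interferon tau, by which the conceptus signals to the mother. Of the 8 genes, MX1, MX2, ISG15, IFI6, IFI27 and RSAD2 encode effectors of the response, and IRF1 and IRF7 encode transcription factors that act within it.

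The unit is the authors' scaled read count, with totals of 10365695 to 10815554 per library. In this unit 1 read was worth about 0.775 to 1.09, so the depth was about 9600000 to 13560000 reads, highest in replicate 1 of the RBPJ siRNA group. A value of 0 allows up to 3 reads, or 2.33 to 3.28 in the unit of the table, as counting error only. RBPJ fell in its own group, from 447 and 391 in the control to 121 and 94.5 (limma, adjusted p = 0.00143), while NOTCH1 stood at 69.6 and 140 in the control and 48.0 and 49.5 in its own group (limma, adjusted p = 0.634). The pluripotency factor POU5F1 ranged from 10911 to 12942 and the trophectoderm factor CDX2 from 624 to 976, so both were detected in every pool. Values are not corrected for transcript length, so levels are compared between libraries and not between genes. Where a pool holds less of a transcript, fewer cells that make it and less RNA per cell cannot be told apart.

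The effector transcripts gave few reads in these embryos, and all but IFI6 varied more between replicate pools than between siRNA groups. MX2, ISG15, IFI6 and RSAD2 had at most 6 reads in every library but control replicate 1, while MX1 had 6 to 39 and IFI27 0 to 33. The effector sum was highest in 2 pools, replicate 1 of the control and replicate 2 of the RBPJ siRNA group, which belong to different groups. Summed over the 6 effectors, the value was 122 and 16.4 in control replicates 1 and 2, 19.4 and 45.2 in the NOTCH1 siRNA group, and 27.7 and 92.4 in the RBPJ siRNA group. The highest and the lowest sum of all 6 libraries both came from the control. IRF1 and IRF7 did not follow the effectors: both were well detected in all libraries, and in those 2 pools IRF1 was at its lowest values and IRF7 in the middle of its range.

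**Figure D1:**
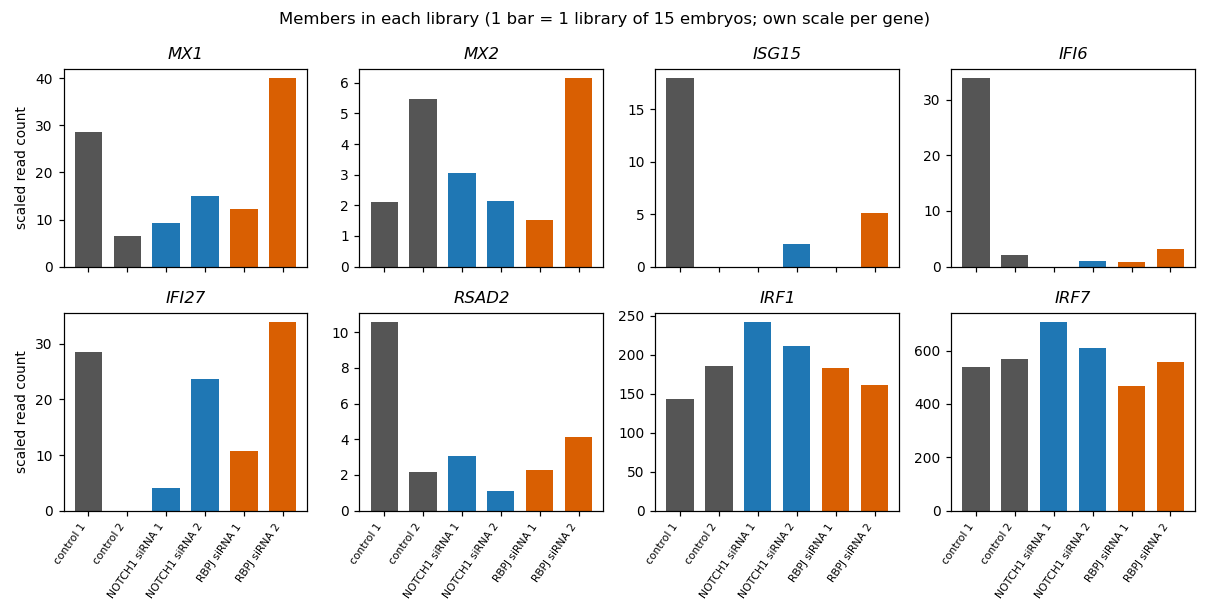
Scaled read count (y axis, linear from 0, own scale per gene) of the 8 genes in the 6 libraries, 1 bar per library, coloured by siRNA group. ISG15 and IFI6 stood at 18.0 and 33.9 in control replicate 1 and at 5.12 or less in every other library, while IRF1 and IRF7 stayed within 144 to 242 and 466 to 707.

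MX1 and MX2 encode dynamin-like GTPases that block the replication of viruses. MX1 had 28.5 and 6.54 in the control, 9.19 and 15.1 in the NOTCH1 siRNA group, and 12.3 and 40.0 in the RBPJ siRNA group. The groups overlapped, and both the lowest library, control replicate 2, and the second highest, control replicate 1, were controls. The group means were 17.5 ± 15.5 (SD, n = 2) in the control, 12.1 ± 4.16 (SD, n = 2) with the NOTCH1 siRNA and 26.2 ± 19.6 (SD, n = 2) with the RBPJ siRNA, so the SD in the control and in the RBPJ siRNA group exceeded the largest difference between group means. MX2, the neighbouring gene, had 2.11 and 5.46 in the control, 3.07 and 2.15 with the NOTCH1 siRNA, and 1.54 and 6.16 with the RBPJ siRNA. It was highest in the same library as MX1, RBPJ siRNA replicate 2, but at about 2 to 6 reads per library it did not follow MX1 in control replicate 1.

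ISG15 encodes a ubiquitin-like protein that is attached to other proteins during the response. It had 18.0 in control replicate 1, about 17 reads, and was listed at 0 in control replicate 2. With the NOTCH1 siRNA it was listed at 0 and had 2.15, and with the RBPJ siRNA it was listed at 0 and had 5.12. ISG15 was thus listed at 0 in 1 library of each group, and the control held both its highest value and a 0. RSAD2 encodes viperin, a radical SAM enzyme that makes an antiviral nucleotide. It had 10.6 and 2.18 in the control, 3.07 and 1.08 with the NOTCH1 siRNA, and 2.31 and 4.11 with the RBPJ siRNA. Outside control replicate 1 this came to about 1 to 4 reads per library.

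IFI6 encodes a small membrane protein that is induced by type I interferon. It had 33.9 in control replicate 1, about 32 reads, against 2.17 in control replicate 2. The NOTCH1 siRNA libraries were listed at 0 and at 1.08, and the RBPJ siRNA libraries had 0.769 and 3.09, or 3 reads at most. IFI6 was the only member that exceeded each of the other 5 libraries by 2 or more log2 units in a single library. Over all named genes this held for 29 in control replicate 1, or 0.189%, and for 5 to 18 in each other library. Among the listed pathway and marker genes, control replicate 1 shared this with ZBP1, a sensor of unusual nucleic acid that had 4.22 there and 0 elsewhere, and with TKDP1, a trophoblast Kunitz domain protein that had 175 there and 15.3 to 21.4 elsewhere.

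IFI27 encodes a related small membrane protein. It had 28.5 in control replicate 1 and was listed at 0 in control replicate 2. It stood at 4.07 and 23.7 with the NOTCH1 siRNA and at 10.8 and 33.9 with the RBPJ siRNA. IFI27 differed from IFI6 in that 3 libraries, 1 in each group, had more than 20. Its group means were 14.3 ± 20.2 (SD, n = 2) in the control, 13.9 ± 13.9 (SD, n = 2) with the NOTCH1 siRNA and 22.3 ± 16.4 (SD, n = 2) with the RBPJ siRNA. The related genes next to it, ISG12(B) and IFI27L2, had 0 to 10.3 and 2.17 to 8.23, each highest in RBPJ siRNA replicate 2 as IFI27 was. Reads that these copies may share cannot be told apart in the deposited values.

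**Figure D2:**
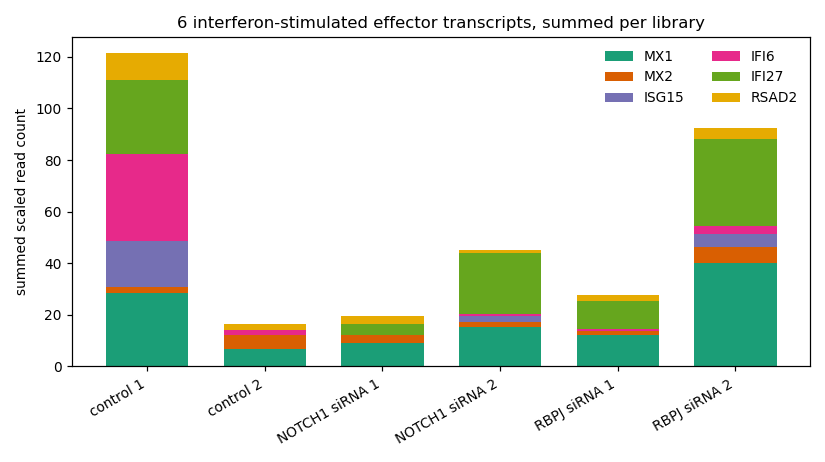
Summed scaled read count (y axis, from 0) of the 6 effector transcripts in each library, stacked by gene. Control replicate 1 (122) and RBPJ siRNA replicate 2 (92.4) stand above the other 4 libraries (16.4 to 45.2), and IFI6 and ISG15 make up a larger part of the former than of the latter.

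Both high pools held reads of MX1 (about 27 and 39) and IFI27 (about 27 and 33), but they differed in the other effectors. IFI6 was 33.9 in control replicate 1 and 3.09 in RBPJ siRNA replicate 2, and ISG15 was 18.0 and 5.12. Of the 6 effectors, 3 were highest in control replicate 1 (ISG15, IFI6 and RSAD2) and 3 in RBPJ siRNA replicate 2 (MX1, MX2 and IFI27). Among all 15314 named genes, control replicate 1 was the highest library for 20.2% and RBPJ siRNA replicate 2 for 16.7%. The replicate gap in the control, as a difference of log2(value + 1), was 4.89 for IFI27, 4.25 for ISG15, 3.46 for IFI6, 1.97 for MX1, 1.86 for RSAD2 and 1.05 for MX2. The gap was 0.37 for IRF1 and 0.07 for IRF7. Differences between replicates within groups made up 81.0% of the variance of MX1 on this log2 scale, 93.8% of that of MX2, 89.0% for ISG15, 81.4% for IFI27 and 68.0% for RSAD2. They made up 45.9% for IFI6, 28.4% for IRF1 and 30.6% for IRF7. Replicates within groups hold 60% of the degrees of freedom, so RSAD2 lay close to the share that groups without any difference would give.

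IRF1 encodes a transcription factor that is induced by interferon and in turn activates interferon-stimulated genes. It had 144 and 186 in the control, 242 and 212 with the NOTCH1 siRNA, and 183 and 161 with the RBPJ siRNA. Both NOTCH1 siRNA libraries lay above all 4 others. Control replicate 1, the pool with the highest effector sum, was the lowest in IRF1. The means were 165 ± 29.6 (SD, n = 2) in the control, 227 ± 21.3 (SD, n = 2) with the NOTCH1 siRNA and 172 ± 15.4 (SD, n = 2) with the RBPJ siRNA.

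IRF7 encodes the factor that amplifies the transcription of type I interferon genes. It had 539 and 567 in the control, 707 and 608 with the NOTCH1 siRNA, and 466 and 559 with the RBPJ siRNA. Here too both NOTCH1 siRNA libraries were the highest, and the RBPJ siRNA libraries overlapped the control. The means were 553 ± 19.8 (SD, n = 2), 658 ± 69.6 (SD, n = 2) and 512 ± 65.6 (SD, n = 2) in the same order. The highest library exceeded the lowest 1.69-fold in IRF1 and 1.52-fold in IRF7, against 6.12-fold in MX1.

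In the comparison of the NOTCH1 siRNA with the control, IRF1 and IRF7 were higher in both NOTCH1 siRNA libraries than in both controls. IFI6 was lower in both NOTCH1 siRNA libraries, but beside control replicate 2 this rested on about 2 reads against 0 and 1. Such a gap lies within the 3 reads that a value of 0 allows. The log2 fold change on the log2(value + 1) scale was 0.47 for IRF1 (SE 0.20) and 0.25 for IRF7 (SE 0.14). For IFI6 it was -2.87, but over the 4 pairs of libraries its difference ran from -5.12 to -0.61, so that its size depended on control replicate 1. The other 5 members overlapped, with MX1 at -0.22 (SE 0.71), IFI27 at 1.04 (SE 1.26), RSAD2 at -1.06, ISG15 at -1.29 and MX2 at -0.32. Groups that did not overlap were thus found for 3 of the 8 members, where the same held for 34.2% of all named genes. By limma, a linear model over all libraries, 0 of the 4 members with a mean of at least 10 passed at an adjusted p below 0.05, as did 0% of the 12070 genes tested. With the replicate number as a block, 138 genes passed, 0 of them members. At an unadjusted p below 0.05 there were 880 genes without the block, or 7.29%, and 51.1% of all genes tested were higher by sign. Of the 4 members with a mean of at least 10, 1 was among the 880 and 3 were higher by sign. IFI27 (mean 16.8) was the member nearest above this minimum and IFI6 (mean 6.83) the nearest below it. MX2, ISG15 and RSAD2 also fell below it, and with no minimum, when all 8 were tested, 0 passed either.

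The median of the 8 log2 fold changes was -0.27 with the NOTCH1 siRNA, beside 0.00 over all 15314 named genes. Over only the 4 members with a mean of at least 10 it had the opposite sign, at 0.36, beside 0.01 over all genes tested. The median of the 8 also turned with the control pool: without control replicate 1 it was 0.25, and without control replicate 2 it was -1.30. Without control replicate 1, IFI27 had a log2 fold change of 3.48, MX1 one of 0.76 and ISG15 one of 0.83. Without control replicate 2 they had -1.40, -1.21 and -3.42. IRF1 kept its sign, at 0.29 and 0.65, and so did IRF7, which ran from 0.14 to 0.35 over the omitted libraries.

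In the comparison of the RBPJ siRNA with the control, the groups overlapped for all 8 members, where 31.5% of all named genes had groups that did not overlap. The log2 fold change was 0.65 for MX1 (SE 0.71), 1.90 for IFI27 (SE 1.26), 0.07 for IRF1 (SE 0.20) and -0.12 for IRF7 (SE 0.14). IFI6, ISG15, RSAD2 and MX2 had -1.97, -0.82, -0.56 and -0.07. None of the 4 members tested passed by limma (0 of 4), beside 0.00829% of all genes tested, which was RBPJ alone. With the replicate block 12 genes passed, 0 of them members. At an unadjusted p below 0.05 there were 524 genes without the block, or 4.34%, and 49.7% of all genes tested were higher by sign. Of the 4 members tested, 0 were among the 524 and 3 were higher by sign. The median of the 8 was -0.09, beside 0.00 over all named genes, and that of the 4 with a mean of at least 10 was 0.36, beside -0.00 over all genes tested. The median of the 8 was 0.13 without control replicate 1, -0.44 without control replicate 2, 0.25 without RBPJ siRNA replicate 1 and -0.53 without RBPJ siRNA replicate 2. MX1 turned to -0.34 and IFI27 to -0.54 without control replicate 2, and they stood at 1.63 and 4.34 without control replicate 1. Both comparisons used the same control libraries, so the gap between the 2 control pools enters each of them.

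Set directly against each other, the NOTCH1 and RBPJ siRNA groups overlapped in the 6 effectors. IRF1 and IRF7 were higher in both NOTCH1 siRNA libraries than in both RBPJ siRNA libraries, with log2 fold changes of 0.40 (SE 0.20) and 0.36 (SE 0.14). Groups without overlap were found for 31.9% of all named genes. The limma fit passed 0 of the 4 members tested, beside 0.00829% of all genes, again RBPJ alone. At an unadjusted p below 0.05 there were 439 genes, or 3.64%, with 1 of the 4 members among them. With the replicate block 15 genes passed, 0 of them members. The median of the 8 was -0.49, that of the 4 with a mean of at least 10 was -0.25, and the former became 0.13 without RBPJ siRNA replicate 2 and -1.25 without RBPJ siRNA replicate 1.

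**Figure D3:**
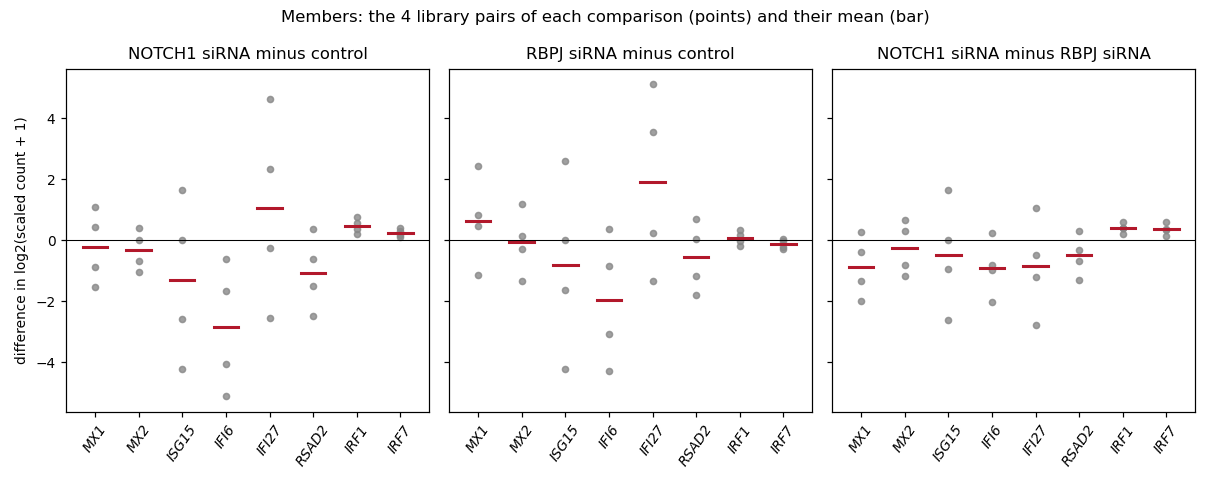
Difference in log2(scaled count + 1) (y axis) for each member in the 3 comparisons; grey points are the 4 pairs of libraries and the red bar is their mean. For the effectors the pairs fall on both sides of 0 in all but IFI6 with the NOTCH1 siRNA, whereas all 4 pairs of IRF1 and of IRF7 lie above 0 where the NOTCH1 siRNA is set against the control or against the RBPJ siRNA.

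Of the interferons, 25 symbols were looked up and 6 had a row. The interferon tau genes were detected at low values. IFNT had 21.2 and 27.2 in the control, 34.7 and 25.9 with the NOTCH1 siRNA, and 18.5 and 14.4 with the RBPJ siRNA. IFNT2 had 3.08 to 18.4 and IFNT3 13.8 to 20.4. The sum of the 4 interferon tau rows was 47.6 and 58.7 in the control, 77.6 and 51.7 with the NOTCH1 siRNA, and 60.0 and 38.0 with the RBPJ siRNA. RBPJ siRNA replicate 2, with the second highest effector sum, had the lowest interferon tau sum, and control replicate 1, with the highest effector sum, the second lowest. The interferon tau copies are near-identical, and how reads were split between them is not given in the sources used here. IFNAG, an interferon alpha gene, and IFNK, interferon kappa, had at most 3 reads in a library. IFNB1 was not analysed here.

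The transcripts of the receiving side were present, with 1 exception. IFNAR1, a chain of the type I receptor, had 158 to 177 in the 6 libraries. IFNAR2, its partner chain, was at or below 1 read in each library, with a highest value of 1.09. JAK1 had 393 to 478, TYK2 182 to 266, STAT2 339 to 421 and IRF9 94.5 to 125. Of the 11 receptor and JAK-STAT genes, 8 had a mean of at least 10. Their median log2 fold change was -0.04 with the NOTCH1 siRNA and -0.01 with the RBPJ siRNA, and by limma 0 passed in either comparison, also 0 at an unadjusted p below 0.05.

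Among nucleic acid sensors and their adaptors, TLR3 and IFIH1 gave few reads, while MAVS and MYD88 gave many. Others on this list were lower than MAVS and MYD88, such as TICAM1 at 30.6 to 53.4 and STING1 at 6.34 to 17.5. TLR3, the endosomal receptor for double-stranded RNA, was listed at 0 in 4 libraries, both controls among them, and had 3.23 in NOTCH1 siRNA replicate 2 and 2.31 in RBPJ siRNA replicate 1. IFIH1, which encodes the cytoplasmic sensor MDA5, had 5.28 and 0 in the control, 8.17 and 11.8 with the NOTCH1 siRNA, and 3.84 and 2.05 with the RBPJ siRNA. DDX58, which encodes RIG-I, had 18.3 to 37.8. In replicate 1 of the control, NOTCH1 siRNA and RBPJ siRNA groups it had 37.0, 37.8 and 36.9. In replicate 2 it had 21.8, 18.3 and 18.5 in the same order. DDX58 was thus higher in replicate 1 of every group and did not follow the effectors. MAVS, the adaptor of both cytoplasmic sensors, had 149 to 201. MYD88, the adaptor of most Toll-like receptors, had 307 to 416, TRAF3, a ubiquitin ligase on the path to interferon transcription, 473 to 702, and LRRFIP1 692 to 811. Of 15 listed genes with a mean of at least 10, 6 were higher and 9 lower by sign with the NOTCH1 siRNA (median -0.11). With the RBPJ siRNA 12 were higher and 3 lower (median 0.08). The share higher by sign was 40% and 80%, beside 51.1% and 49.7% of all genes tested. By limma 0 passed, with 2 and 1 at an unadjusted p below 0.05. These were 13.3% and 6.67%, beside 7.29% and 4.34% of all genes tested.

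Of the other interferon regulatory factors, IRF3, a factor activated downstream of the sensors and their adaptors, had 655 to 845. IRF8 had 201 to 337 and the corepressor IRF2BP2 845 to 987. Of the 7 tested, 0 passed by limma in either comparison. There were 2 at an unadjusted p below 0.05 with the NOTCH1 siRNA and 0 with the RBPJ siRNA. This was 28.6% and 0%, beside 7.29% and 4.34% of all genes tested. The list medians were 0.03 and 0.06. IRF5 had 157 and 168 in the control, 263 and 226 with the NOTCH1 siRNA, and 191 and 189 with the RBPJ siRNA. IRF4 had 31.4 and 26.5, then 7.28 and 11.8, then 16.0 and 17.3 in the same order. Both are named after their values were seen.

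Other interferon-stimulated genes fell into 2 sorts. Of 73 symbols, some of which also stand in the lists above, 60 had a row, and 37 of these had a mean of at least 10. MOV10, an RNA helicase, had 5587 to 7065, SHISA5 1155 to 1596, PNPT1, a mitochondrial exoribonuclease, 653 to 861, and ADAR, which edits double-stranded RNA, 452 to 566. Such genes varied little. The other 23 gave few reads, as most effectors did. IFIT1, which binds foreign RNA, had 4.22 and 0 in the control, 0 and 0 with the NOTCH1 siRNA, and 0 and 1.02 with the RBPJ siRNA. OAS1Y, an oligoadenylate synthetase, had 15.9 and 2.19, then 2.04 and 2.15, then 3.08 and 7.19 in the same order. EIF2AK2, the kinase PKR, had at most 5.38. Of these 23, OAS1X, OAS1Y, IFIT1, IFI44L and XAF1 were highest in control replicate 1; they are named after their values were seen. That is 21.7%, beside 15.6% of all genes with a mean below 10. NOTCH1 siRNA replicate 2 was the highest library for more of them, 7 of the 23 or 30.4%, beside 17% of such genes. RBPJ siRNA replicate 2 was the highest library for 1 of the 23, or 4.35%, beside 17.7% of such genes. Summed over the 23, the value was 69.6 in control replicate 1, 66.2 in NOTCH1 siRNA replicate 2 and 31.2 to 48.7 in the other 4. In RBPJ siRNA replicate 2 this sum was 44.7, where the effector sum was 92.4. The latter came mostly from MX1 (40.0) and IFI27 (33.9), whose means exceed 10. Genes at such means are left out of the sum over the 23, so this sum cannot show whether the effector excess had a counterpart among them. Of the 37 with a mean of at least 10, RBPJ siRNA replicate 2 was the highest library for 5. That was 13.5%, beside 16.4% of all genes at such means. Control replicate 1 was the highest for 7 of the 37, or 18.9%, beside 21.4%. Neither pool was thus the highest more often than over all genes.

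For the 37 better detected genes the median log2 fold change was 0.14 with the NOTCH1 siRNA, 25 being higher and 12 lower by sign, and 0.16 with the RBPJ siRNA, 23 higher and 14 lower. The share higher by sign was thus 67.6% and 62.2%, beside 51.1% and 49.7% of all genes tested. By limma 0 passed in either comparison. At an unadjusted p below 0.05 there were 6 and 5, or 16.2% and 13.5%, beside 7.29% and 4.34% of all genes tested. USP18, the enzyme that removes ISG15 from its targets and dampens receptor signalling, had 15.4 and 20.9 in the control, 12.9 and 125 with the NOTCH1 siRNA, and 21.4 and 32.3 with the RBPJ siRNA. The value of 125 belonged to NOTCH1 siRNA replicate 2, where ISG15 itself had 2.15. Of the enzymes that conjugate ISG15, the activating enzyme UBA7 had 33.7 to 68.4 and the ligase HERC5 114 to 188, with HERC5 highest in RBPJ siRNA replicate 2 and second highest in control replicate 1. ARIH1, a ubiquitin ligase with a role in ISG15 conjugation, had 648 to 818. The conjugating enzyme UBE2L6 was listed at 0 in all but NOTCH1 siRNA replicate 2, where it had 4.31. Of the 5 conjugation genes tested, 0 passed by limma in either comparison, with 0 at an unadjusted p below 0.05.

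**Figure D4:**
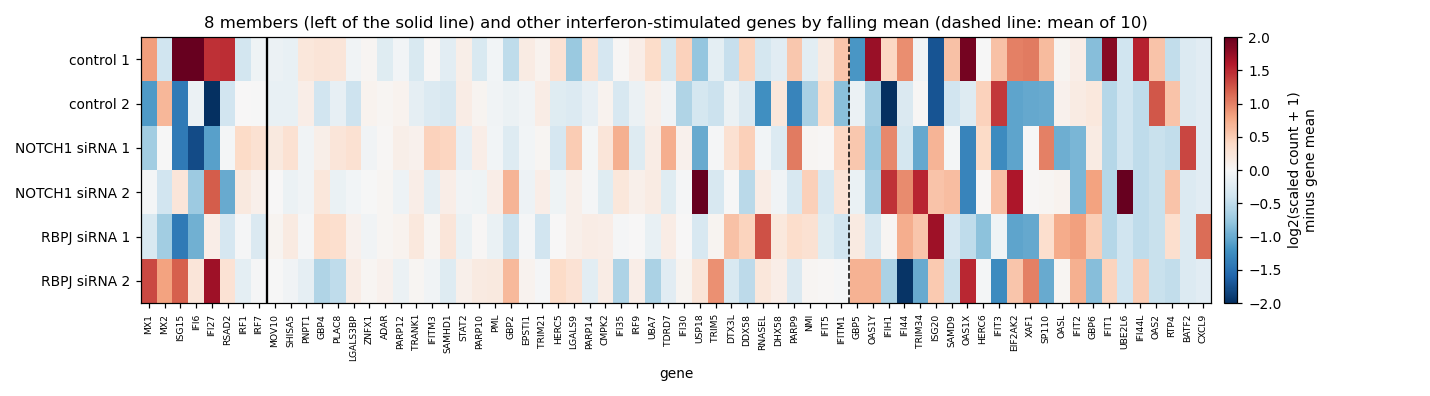
Log2(scaled count + 1) minus the mean of each gene over the 6 libraries (colour, limited to -2 and 2) for the 8 members, left of the solid line, and 60 other interferon-stimulated genes by falling mean, with those under a mean of 10 right of the dashed line; rows are libraries. Control replicate 1 is high in ISG15, IFI6, IFI27, RSAD2 and, to the right, OAS1X, OAS1Y and IFIT1, while the well detected genes in the middle vary little.

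Genes that restrain the response had a mean of at least 10 in all 18 rows found, though TNFAIP3 and RNF125, named after their values were seen, had only 12.7 to 39.5 and 3.07 to 20.7. SOCS1, an inhibitor of JAK kinases, had 129 and 150 in the control, 217 and 220 with the NOTCH1 siRNA, and 118 and 222 with the RBPJ siRNA. Both NOTCH1 siRNA libraries were above both controls, as for IRF1 and IRF7, but RBPJ siRNA replicate 2 was as high (limma, adjusted p = 0.631 for the NOTCH1 siRNA against the control, log2 fold change 0.64, SE 0.26). TRIM28, a corepressor, had 15229 to 17581, the deubiquitinase OTUD5 2732 to 3734 and PIAS2, a SUMO ligase, 1230 to 1347. By limma 0 of the 18 genes of this list passed, with medians of -0.01 and -0.01. At an unadjusted p below 0.05 there was 1 with the NOTCH1 siRNA and 0 with the RBPJ siRNA. This was 5.56% and 0%, beside 7.29% and 4.34% of all genes tested.

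Antigen presentation and inflammation, branches that interferon can raise, were compared with the effectors. B2M, the light chain of MHC class I, had 479 and 230 in the control, 320 and 221 with the NOTCH1 siRNA, and 317 and 168 with the RBPJ siRNA. It was highest in control replicate 1, like ISG15 and IFI6, but lowest in RBPJ siRNA replicate 2, where MX1 and IFI27 peaked. B2M was also higher in replicate 1 than in replicate 2 of every group, as DDX58 was, which ISG15 and IFI6 were not. The MHC class I gene JSP.1 had 558 to 983, and the peptide transporters TAP1 and TAP2 503 to 592 and 399 to 571. Of 14 antigen processing genes 0 passed by limma, with 1 and 0 at an unadjusted p below 0.05 and medians of 0.10 and -0.01. The former were 7.14% and 0%, beside 7.29% and 4.34% of all genes tested. In the NF-kB and inflammatory list, RELA had 674 to 796, IKBKG 509 to 680 and PTGS2, which makes prostaglandin precursors, 343 to 817. TNF had 3.27 at most. Of 13 tested, 0 passed by limma, with 0 and 0 at an unadjusted p below 0.05, and medians of 0.03 and 0.16.

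The coding neighbours of RSAD2, ISG15 and IFI6 were read beside these members, which all peaked in control replicate 1. Gene order was read from the RefSeq table of the assembly ARS-UCD2.0, in which all 8 symbols were found; the submitters' notes name ARS-UCD1.2, so only the order is used. CMPK2, which lies next to RSAD2 and is known to be induced with it, had 98.2 and 131 in the control, 147 and 104 with the NOTCH1 siRNA, and 136 and 138 with the RBPJ siRNA. It was lowest in control replicate 1, where RSAD2 was highest, and RNF144A, on the other side, had 78.3 to 178 and was highest in RBPJ siRNA replicate 1. AGRN, next to ISG15, had 428 to 749 and was highest in NOTCH1 siRNA replicate 1, where ISG15 was listed at 0. HES4, the other neighbour of ISG15, had 2 reads at most and its highest value, 2.12, in control replicate 1, as ISG15 did. FGR, next to IFI6, had 133 in control replicate 1, its lowest, and up to 283, and FAM76A, on the other side, had 86.7 there, also its lowest, and up to 110.

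Profiles were also compared over the 6 libraries, as the root mean square difference of log2(value + 1) after centring each gene. For the 4 members with a mean of at least 10, the nearest of 12069 other genes were not members or listed genes. MX1 was nearest to TMEM187, INSM1 and SEC14L4, at 0.26, 0.31 and 0.36. IFI27 was nearest to ACTG2, ZMYND15 and CAMK2N2, at 0.96, 1.01 and 1.08. IRF1 was nearest to TTYH2, GPC1 and PRKCZ, at 0.05, 0.05 and 0.06, and IRF7 to EDEM2, C7H19orf25 and LIMK1, at 0.05, 0.06 and 0.06. With 6 points and so many genes, near matches are a description of these libraries only.

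Markers of other cell types were read beside the effectors. Of 20 blood and immune cell markers 19 had a row and 6 a mean of at least 10. Their summed level was 2375 to 3369 in the control, 2076 to 2591 with the NOTCH1 siRNA and 2455 to 2984 with the RBPJ siRNA, mostly from CSF1R and the row labelled HBA. Without these it was 197 to 243, 165 to 235 and 205 to 217. LYZ, lysozyme, had 44.7 to 88.8. PTPRC, the pan-leukocyte marker CD45, had 7.39 and 0 in the control, 3.07 and 2.15 with the NOTCH1 siRNA, and 3.07 and 11.3 with the RBPJ siRNA, and so was highest in the 2 pools with the highest effector sums. Of the 19 markers, CD4, LYZ and LAPTM5 were highest in control replicate 1, which is 15.8% beside 20.2% of all named genes. PTPRC, CD14, ITGAM, CD79B and NKG7 were highest in RBPJ siRNA replicate 2, which is 26.3% beside 16.7%; they are named after their values were seen. CD3E, a T cell marker, was listed at 0 in both of those pools, and ITGAM, of myeloid cells, at 0 in control replicate 1 and at 3.99 in RBPJ siRNA replicate 2. By limma 0 of the 6 passed in either comparison, with 1 and 0 at an unadjusted p below 0.05. The latter were 16.7% and 0%, beside 7.29% and 4.34% of all genes tested. The cumulus, granulosa and fibroblast markers, 14 of 16 with a row, summed to 847 to 999, 829 to 946 and 933 to 942. The part of such cells in the effector values was not tested.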

How the data were processed

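Polyadenylated RNA of 6 pools of 15 bovine embryos was analysed, 2 for each siRNA. The deposited table holds 1 signal value per gene and library: per the labels, no unit is named, and the values look like read counts divided by scaling factors of the authors. Salmon 0.14.1, DESeq2 and ARS-UCD1.2 are named in the submitters' processing notes, without a role; the annotation and any filter are unknown here. Of low values, 84.8% to 85.6% lay within 0.1 of a whole multiple of the value of 1 read, too few to recover reads, so no count-based test was run. The 2551 of 17922 rows without a gene name were omitted (6.20% to 7.22% of each total), and of 57 repeated symbols the row with the highest mean was kept. The 12070 genes with a mean of at least 10 were fitted as log2(value + 1) with limma 3.58.1 in R 4.3.3, using group means over 6 libraries (3 residual degrees of freedom), variances moderated with a trend, and Benjamini-Hochberg adjustment over all genes tested, at a threshold of 0.05. No library was dropped. Deviations of same-numbered libraries from their group means correlated at 0.17 to 0.21 over these genes, so counts with the replicate number as a block are given beside the main ones, although the labels do not say what the numbers share. The fit was tested on simulated data. The labels do not say whether the replicates are separate collections, so p-values reflect only how these libraries vary, which may be technical. Members and lists were chosen with earlier results of these data known. Named were all members, list genes past the threshold, the 3 best detected genes of each pathway list, fixed key genes and, for members with a mean of at least 10, the 3 nearest profiles; neighbours were added afterwards. Some list genes are not reported here. Alternatives were other pseudocounts, minima, scalings, variance models, replicate blocking and leaving out each library. Plots used matplotlib 3.10.9 (Python 3.11.15).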

Additional observations from a re-analysis of the deposited data

How the results depend on the processing

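Of the 8 members 4 had a mean below 10, where counting error is large, and each group had 2 libraries. The filter, the variance model, the groups in the fit and the block cannot change a fold change. Under the 4 pseudocounts and scalings that can, the median of the 8 kept its sign in each of the 3 comparisons. Over omitted libraries it ran from -1.30 to 0.25 for the NOTCH1 siRNA against the control, from -0.53 to 0.25 for the RBPJ siRNA against the control and from -1.25 to 0.13 for the NOTCH1 against the RBPJ siRNA. Of the single members' fold changes, 94 of 96 under these 4 settings stayed within 1 SD of the replicates, and 95 kept their sign. Without a library of the groups compared, 84 of 96 stayed within 1 SD and 75 kept their sign. Leaving out 1 of 2 libraries shifts a fold change by a part of the replicate gap, and such gaps also set this SD. The count of 84 is therefore largely fixed in advance and is no measure of stability. limma called 0, 1 and 1 genes in the 3 comparisons and, over omitted libraries, 0 to 1, 1 to 3 and 0 to 3. Variance moderation without the trend gave 0 in both comparisons that had called RBPJ. With the replicate block limma called 138, 12 and 15 genes, 0 of them members; the cause was not tested. The median of other interferon-stimulated genes ran from 0.04 to 0.25 for the NOTCH1 siRNA and from 0.04 to 0.18 for the RBPJ siRNA over omitted libraries. The alternatives planned for count tables were not run.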
